A study of Mus musculus with 8 samples.

Results

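31 genes of glucose use were followed in naive CD8+ T cells: 2 glucose transporters, 9 genes of upper glycolysis, 6 of lower glycolysis, 7 of lactate and pyruvate handling, 6 of the pentose phosphate pathway and the regulator Hif1a. They were taken by gene symbol from a count table of 55573 mouse genes, of which 12500 had enough counts to be tested, all 31 among them. The list was set with earlier results of these data known. 5 of the 31 had a mean under 5 CPM, the usual depth-normalised count of RNA-seq, here also scaled for library composition. The cells were resting cytotoxic lymphocytes sorted from spleen and lymph nodes of male C57BL/6 mice. Furin encodes a protease of the secretory pathway. 5 libraries were labelled Furin KO and 3 were labelled WT, the controls, and both names stand for these labels throughout. Mice of 7 weeks gave 1 library of each genotype, and mice of 8 weeks gave 4 Furin KO and 2 WT libraries. The labels name neither the part of Furin removed nor a Cre driver, and do not say whether each library was a separate mouse, so p-values measure only the spread between these libraries.

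Glycolysis splits glucose into pyruvate in the cytosol and yields ATP without oxygen. Lactate dehydrogenase turns pyruvate into lactate for export, and pyruvate dehydrogenase instead feeds it to the mitochondria. The pentose phosphate pathway branches off at glucose 6-phosphate and makes NADPH and ribose. Resting T cells are known to rely mostly on mitochondrial respiration, and to raise glycolysis on activation through MYC and HIF-1 alpha. Several steps have isozymes, enzymes of 1 reaction made from different genes.

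Total counts ran from 11308220 to 21040431 per library. The libraries carried naive CD8+ T cell transcripts, with Cd8a between 1457 and 1941 CPM. 5 of 8 myeloid markers and all 5 erythroid and platelet markers had 0 counts in every library. Of the marker genes with enough counts to be tested, 0 passed by genotype. Of the B cell list 5 of 6 genes were at most 1.34 CPM (Cd79a), but Cd79b was at 19.5 to 27.8 CPM. Of the CD4 and regulatory T list, Cd4 was at most 0.892 CPM, while Izumo1r was at 31 to 66.6 CPM and Ctla4 reached 8.15 CPM. The 7 genes of activated or cycling T cells summed to 14.5 to 23.7 CPM, with Top2a at 8.26 to 13.2 CPM, Tnfrsf9 at 3.69 to 9.4 CPM and Mki67 at most 2.38 CPM. Furin itself was at 69.3 ± 11.8 CPM (SD, n = 5) under the Furin KO label and 63.6 ± 5.71 CPM (n = 3) in WT, so whole-gene counts did not bear out the knockout label. In title order the libraries form 3 runs, each opening with a WT library: run 1 is WT replicate 1 and Furin KO replicate 1 (7 weeks), run 2 is WT replicate 2 with Furin KO replicates 2 and 3, and run 3 is WT replicate 3 with Furin KO replicates 4 and 5. No label calls these runs a batch. Differences in counts ranged lower within runs (chi-square per degree of freedom 11.1 to 17.3, 7 pairs) than between them (17.1 to 40.9, 21 pairs). These ranges overlapped slightly, and the pairs between runs include libraries of unlike age. The runs were themselves noticed in the counts, so this comparison is no independent test of them.

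What a count can show differs between the 31 genes, because several of them have near-identical copies elsewhere in the genome. Gapdh, which oxidises glyceraldehyde 3-phosphate, had 182 annotated pseudogenes of at least 90% identity over at least 300 bases. Of the 50-base windows of its longest coding transcript, 82.5% also occurred letter for letter in a transcript of another annotated gene. For Eno1 (enolase) the share was 72.2%, for Pgk1 (phosphoglycerate kinase) 68.0% and for Pgam1 (phosphoglycerate mutase) 41.5%. It was at most 30.5% (Pkm) in the other 27 genes and 0 in 15 of them. How the authors treated a read with several equal matches is not given in the sources used here. The sequences printed here are the coding windows of Gapdh, Eno1 and Pgam1 that are shared with most other genes (capitals: the 50 shared bases; lower case: 15 flanking bases on each side; 5′ to 3′ on the gene's strand, GENCODE M21 transcripts on GRCm38). They lie at chr6:125162898-125162947 (minus strand, exon 4; found in 84 other genes), chr4:150245130-150245179 (plus, exon 7; 5 genes) and chr19:41916679-41916728 (plus, exon 3; 3 genes).
Gapdh: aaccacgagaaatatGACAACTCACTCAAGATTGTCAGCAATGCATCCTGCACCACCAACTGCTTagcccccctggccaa
Eno1: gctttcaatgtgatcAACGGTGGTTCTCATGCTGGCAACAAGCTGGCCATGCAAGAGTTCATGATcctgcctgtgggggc
Pgam1: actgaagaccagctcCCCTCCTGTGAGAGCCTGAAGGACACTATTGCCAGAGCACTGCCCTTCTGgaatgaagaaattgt

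Counted levels of Pgk1 and Pgam1 were among the lowest 5 of the 31, and those of Eno1 and Gapdh near the middle. Per kilobase of exon, Pgk1 stood at 0.957 CPM (mean of 8 libraries, range 0.548 to 1.5) and Pgam1 at 1.51 (1.25 to 1.87). Eno1 stood at 11.8 CPM per kilobase (rank 18 of 31) and Gapdh at 10.4 (rank 20), or ranks 14 and 15 by the longest coding transcript. The median of the 4 was 5.96 CPM per kilobase, against 17.1 for the other 27 genes. Eno1b, an intronless copy of Eno1, had 0 counts in all 8 libraries. Whether reads shared between copies were left out of the counts was not tested, and comparisons of their levels with other genes, such as that of the enolases, are uncertain. Another limit is overlap: 14 of the 31 genes share exon bases with another annotated gene, 11 of them with one on the opposite strand, and the strand setting of the counting is not given. The longest overlaps on the same strand are those of Pgls with Fam129c (776 bases) and Pkm with Gm49759 (767), and on the opposite strand those of Pfkp with Pitrm1 (748) and Gpi1 with Gm26762 (741).

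**Figure D1:**
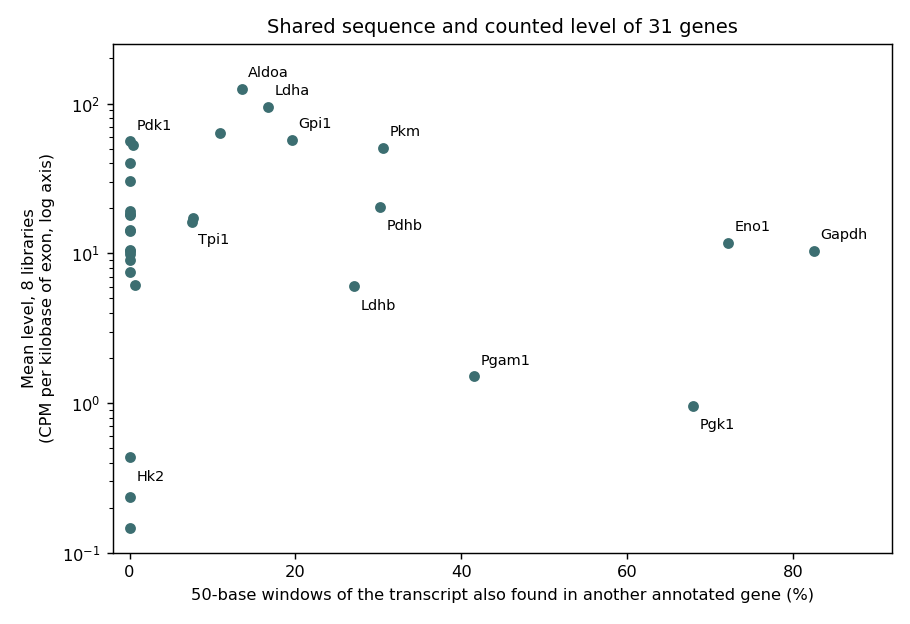
Each point is 1 of the 31 genes, with the percent of its 50-base transcript windows found in another annotated gene (x) and its mean level over 8 libraries in CPM per kilobase of exon (y, log axis). Gapdh, Eno1, Pgk1 and Pgam1 lie at 41.5% or more, all at or under 11.8 CPM per kilobase.

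Outside Gapdh, Eno1, Pgk1 and Pgam1, the resting cells held most counted RNA per kilobase for aldolase A and lactate dehydrogenase A. Copies touch several of these genes too. The share of 50-base windows found in other genes was 13.5% for Aldoa, 16.6% for Ldha, 19.6% for Gpi1 and 30.5% for Pkm. Aldoa, which cleaves fructose 1,6-bisphosphate, stood at 125.5 CPM per kilobase of exon (range over 8 libraries 103 to 152), and Ldha, which makes lactate, at 95.3 (84.5 to 108). Their ranges overlapped each other, although Aldoa was above Ldha in each of the 8 libraries, and lay above the range of the gene next in order. Taldo1 (transaldolase) at 63.1, Gpi1 (glucose 6-phosphate isomerase) at 57.4, Pdk1 (a kinase that switches pyruvate dehydrogenase off) at 55.9, Pdha1 (a subunit of that dehydrogenase) at 53.1 and Pkm (pyruvate kinase) at 50.7 CPM per kilobase followed, and each range overlapped that of its neighbour in the order. Tkt (transketolase) stood at 40.3 CPM per kilobase and Hk1 (hexokinase 1) at 30.2. In the oxidative branch of the pentose phosphate pathway, G6pdx, its entry enzyme, stood at 17.1, Pgls at 18.2 and Pgd at 14.3 CPM per kilobase, while Rpia, which isomerises ribose 5-phosphate, stood at 8.96. At the lower end, Hk2 (0.434), Aldoc (0.236) and Slc16a3 (0.147) were under 1 CPM per kilobase, from 354, 101 and 106 counts summed over the 8 libraries. With the length of the longest coding transcript in place of all exons, Aldoa and Ldha stayed the highest and these 3 genes the lowest, and ranks between moved by up to 7 places.

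**Figure D2:**
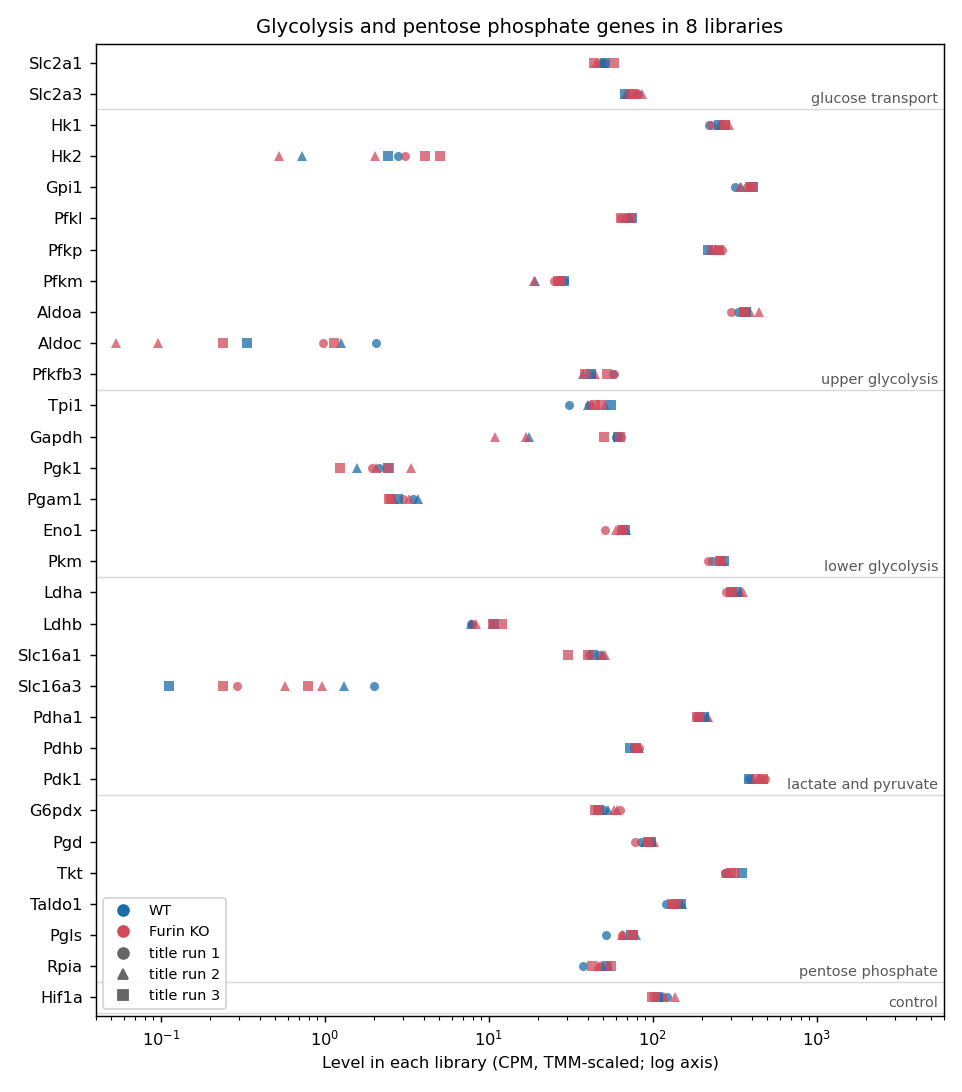
Each point is 1 library (colour: genotype; shape: title run), with its level in CPM on a log axis, for the 31 genes in rows by role. Most genes hold their 8 libraries within a narrow band, while Gapdh, Hk2, Aldoc and Slc16a3 spread over the widest ranges.

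In most families 1 isozyme held nearly all of the counted RNA in the resting cells. Hexokinases trap glucose in the cell, and Hk2 is known as the form raised on activation. Per kilobase of exon, Hk1 made up 96.1% ± 1.38 (SD, n = 5) of the hexokinase sum in Furin KO and 96.7% ± 0.528 (n = 3) in WT. Hk3 held 2.39% and 2.14%, and Hk2 1.55% and 1.15%. By library, Hk1 was at 220, 268 and 253 CPM in the WT libraries and at 227, 293, 253, 275 and 274 CPM in the Furin KO libraries in replicate order. The groups overlapped. In bulk samples such as these, fewer cells of a type and less RNA per cell cannot be told apart.

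Aldoa made up between 99.5% and 100% of Aldoa and Aldoc together in each library. Aldoc, known from brain, was at 2.06, 1.25 and 0.337 CPM in WT and 0.970, 0.0958, 0.0534, 0.238 and 1.14 CPM in Furin KO. These rest on 1 to 30 counts per library. Ldha made up 93.8% ± 1.15 (n = 5) of its pair in Furin KO and 94.5% ± 0.809 (n = 3) in WT, the rest being Ldhb, the form that favours pyruvate. Ldha lay at 297, 316 and 327 CPM in WT and 280, 340, 357, 304 and 301 CPM in Furin KO. Ldhb lay at 7.76, 7.77 and 10.7 CPM in WT and 7.90, 10.5, 8.39, 10.6 and 12.0 CPM in Furin KO. Both genes overlapped between the groups. Of the lactate transporters, Slc16a1 (MCT1) held 98.9% ± 0.685 and 98.1% ± 1.62, and Slc16a3 (MCT4), the exporter of strongly glycolytic cells, the rest. Slc16a1 was at 46.7, 49.5 and 43.1 CPM in WT and 40.7, 48.6, 51.3, 40.3 and 30.3 CPM in Furin KO, where the lowest is replicate 5. Slc16a3 had 2 to 29 counts per library, and no more than 1.99 CPM. For pyruvate kinase all counts were on Pkm and 0 on Pklr. Pkm was at 230, 264 and 272 CPM in WT and 218, 258, 268, 262 and 255 CPM in Furin KO. Counts per whole gene do not separate the M1 and M2 forms, which are spliced from Pkm.

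Phosphofructokinase, the committed step of glycolysis, was a mixture of 3 isozymes. Pfkp held 51.3% ± 2.60 (n = 5) of the sum per kilobase of exon in Furin KO and 48.5% ± 2.92 (n = 3) in WT, Pfkl 28.3% ± 2.02 and 30.4% ± 2.45, and Pfkm 20.4% ± 2.21 and 21.1% ± 3.63. Pfkp was first in all 8 libraries. It was at 251, 228 and 218 CPM in WT and 264, 258, 240, 255 and 231 CPM in Furin KO, and Pfkl at 69.7, 72.6 and 74.8 CPM in WT and 63.9, 72.4, 67.9, 64.2 and 73.7 CPM in Furin KO. Pfkm was at 28.6, 19.0 and 28.6 CPM in WT and 25, 26.3, 18.9, 26.3 and 27.6 CPM in Furin KO. Every one of these groups overlapped. With the longest coding transcript as the length, the share of Pfkp was 68.1%, since its exon union of 13401 bases is over 3 times its coding transcript of 4145.

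The order of the glucose transporters depended on the length used. By exon union, Slc2a1 (GLUT1) held 57.5% of the pair over the 8 libraries, and by the longest coding transcript 44.3%, with Slc2a3 (GLUT3) the rest. Slc2a1 was at 49.3, 49.6 and 51.4 CPM in WT and 50.9, 46.7, 45.2, 43.7 and 57.7 CPM in Furin KO. Slc2a3 was at 81.4, 69.3 and 67.8 CPM in WT and 79.0, 85.7, 68.4, 74.1 and 76.4 CPM in Furin KO. Neither separated the groups. Among enolases, Eno3, known from muscle, held 61.8% ± 6.03 and 57.9% ± 1.83 of the sum per kilobase of exon, above Eno1 at 37.1% ± 5.95 and 41.1% ± 1.89. Eno2 made up 1.1% and 0.958%. Eno1 is the gene with 72.2% shared windows, and by coding transcript length Eno3 held 39.4%, so this order is uncertain.

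**Figure D3:**
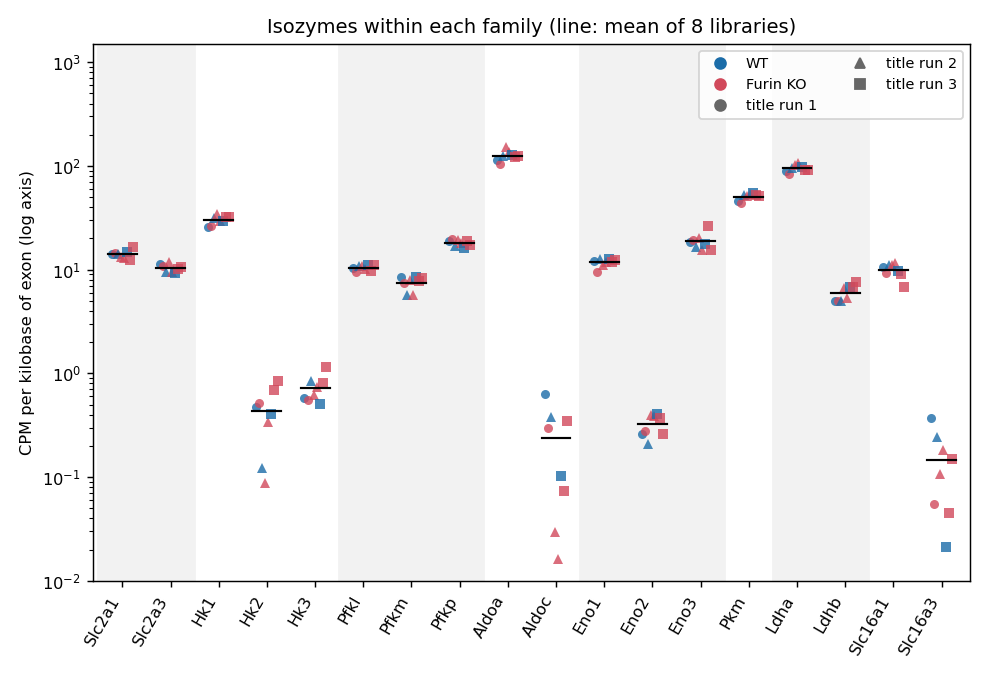
Level in CPM per kilobase of exon (log axis) of each isozyme in each library (colour: genotype; shape: title run; line: mean of 8 libraries), with families shaded in turn; Pklr had 0 counts and is not drawn. Hk1, Aldoa, Ldha and Slc16a1 lie at least 10 times above their partners, while the 3 phosphofructokinases lie close together.

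The comparison of genotypes asked whether the glucose genes differ between the libraries labelled Furin KO and those labelled WT. None of the 31 passed edgeR's quasi-likelihood test at a Benjamini-Hochberg adjusted p under 0.05, and 0 had an unadjusted p under 0.05. Over all 12500 genes, 4 passed (0.032%), and 401 had an unadjusted p under 0.05. Nor did the groups separate in any of the 31 genes, where they did in 2.9% of all genes. 19 genes were above and 12 below 0, with a median log2 fold change (Furin KO minus WT) of 0.03, against 0.00 over all genes tested. The median size of the log2 difference was 0.08 in the 31 genes and 0.11 over all genes. DESeq2, limma-voom and every other alternative run also called 0 of the 31.

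By role, upper glycolysis had 6 genes above and 3 below 0, lower glycolysis 2 and 4, lactate and pyruvate handling 5 and 2, and the pentose phosphate pathway 4 and 2. The intervals say how large a difference these libraries could hide. In 24 of the 31 genes the 95% interval of the fold change lay within 1.5-fold in either direction, and in 17 within 1.25-fold. Tight intervals included that of Ldha (log2 0.01, -0.19 to 0.22), Pkm (-0.02, -0.22 to 0.18), Aldoa (0.06, -0.17 to 0.29), Hk1 (0.10, -0.12 to 0.31) and Hif1a (0.01, -0.22 to 0.24). Hk2 (0.57, -0.71 to 1.85), Aldoc (-1.31, -3.29 to 0.67), Slc16a3 (-0.99, -2.79 to 0.80), Gapdh (-0.17, -1.13 to 0.78), Pgk1 (0.13, -0.86 to 1.12), Pgam1 (-0.25, -1.0 to 0.50) and Ldhb (0.17, -0.29 to 0.63) had intervals that passed 1.5-fold. A difference of that size was not resolved in these 7 genes.

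**Figure D4:**
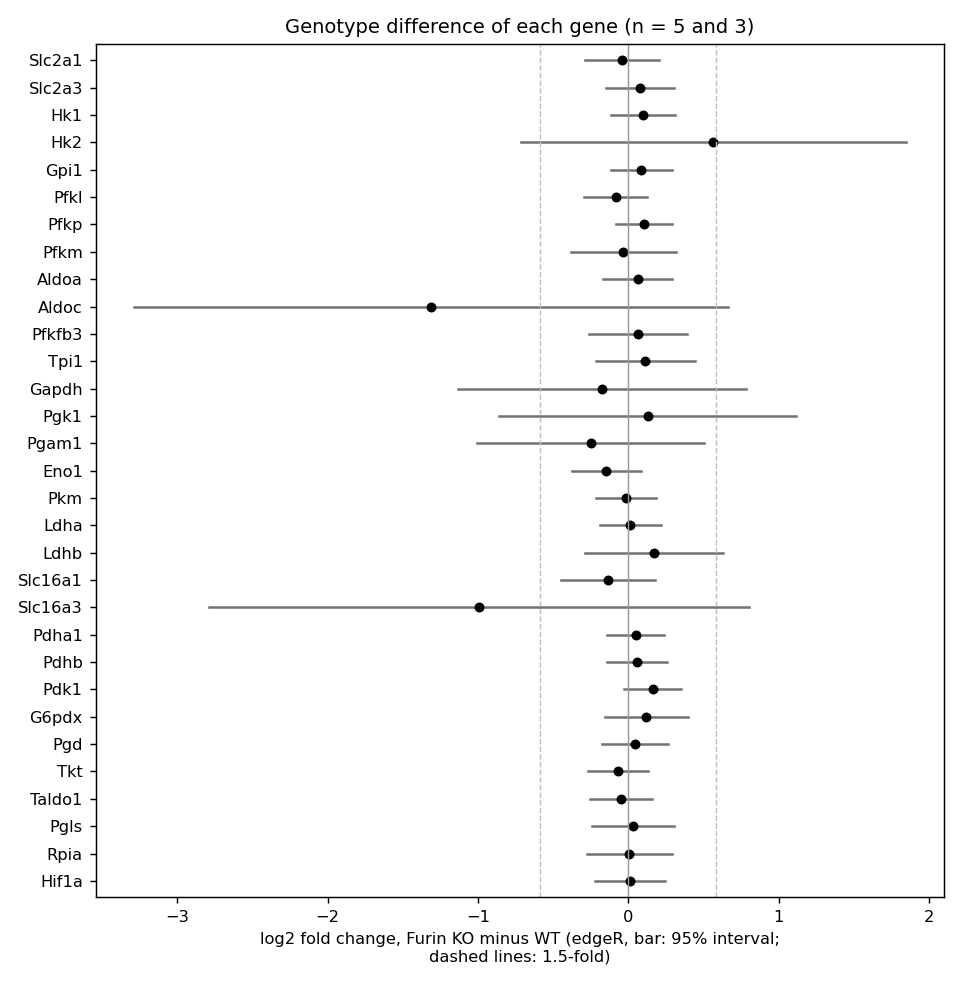
Points give the log2 fold change of each gene, Furin KO minus WT (n = 5 and 3), from edgeR. Bars give a 95% interval derived from the F statistic of the test, and dashed lines a 1.5-fold difference. All 31 bars cross 0, and 24 stay within the dashed lines.

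The lowest p among the 31 belonged to Pdk1, the pyruvate dehydrogenase kinase. It was at 388, 438 and 388 CPM in WT and 484, 472, 409, 468 and 430 CPM in Furin KO. WT replicate 2 lay above Furin KO replicates 3 and 5, so the groups overlapped. The log2 fold change was 0.16 (SE 0.09, edgeR p = 0.0902, adjusted p = 1.0; exact two-sided permutation p = 0.0714 over 56 arrangements, the smallest possible being 0.0179). Within runs, the Furin KO libraries were above their WT library in all of run 1 and run 3, and 1 of 2 was in run 2. With the run as a factor, a term chosen with earlier results known, edgeR gave Pdk1 a log2 fold change of 0.17 (adjusted p = 0.817) and an unadjusted p under 0.05. This unadjusted p (edgeR, 0.0338) was the lowest of Pdk1 in any of the 17 alternative settings. Tpi1 (triosephosphate isomerase) reached 0.0312 by edgeR without WT replicate 3. Of the enzyme that Pdk1 acts on, Pdha1 was at 201 ± 13.9 CPM in Furin KO and 194 ± 8.66 CPM in WT, and Pdhb, the other E1 subunit, at 80.0 ± 1.96 and 76.9 ± 4.86 CPM.

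Next in order of p came Aldoc, given above, Eno1 and Slc16a3. Eno1 was at 65.9, 68.6 and 67.9 CPM in WT and 50.8, 59.9, 64.0, 64.5 and 66.0 CPM in Furin KO, where replicate 5 lay above WT replicate 1. Its log2 fold change was -0.14 (SE 0.11, edgeR adjusted p = 1.0). Of the entry gene of the pentose phosphate pathway, G6pdx, levels were 50.6, 53.0 and 46.7 CPM in WT and 63.0, 60.2, 58.1, 44.4 and 46.2 CPM in Furin KO. Furin KO replicates 4 and 5, both of run 3, were the lowest of all 8, and the groups overlapped. Hif1a, the oxygen-regulated subunit of HIF-1, had 123, 109 and 108 CPM in WT and 114, 117, 136, 99.4 and 103 CPM in Furin KO, again overlapping. The remaining pentose phosphate genes overlapped too, with Tkt at 291 ± 14.3 CPM in Furin KO (n = 5) and 305 ± 39.8 CPM in WT (n = 3), Taldo1 at 135 ± 5.34 and 140 ± 16.7, Pgd at 93.5 ± 9.17 and 90.5 ± 6.00, Pgls at 69.3 ± 5.86 and 67.8 ± 14.4, and Rpia at 48.2 ± 4.83 and 47.8 ± 8.86 CPM. Summed over the 31 genes, the level was 3847 ± 118 CPM in Furin KO and 3736 ± 172 CPM in WT.

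Other genes of the same pathways, from lists set for this purpose, also did not pass: 0 of 58 tested, in either direction. Of the other glucose transport and glycolysis genes, 16 of 30 were tested, 10 above and 6 below 0. Pfkfb4, which like Pfkfb3 sets the level of the activator fructose 2,6-bisphosphate, was at 11.05, 8.24 and 8.83 CPM in WT and 5.62, 5.99, 4.91, 6.91 and 6.94 CPM in Furin KO. The groups did not overlap, and the log2 fold change was -0.63 (SE 0.23, edgeR adjusted p = 1.0), with an unadjusted p under 0.05. Pfkfb3 was at 45.4 ± 10.3 CPM in WT and 47.5 ± 7.94 CPM in Furin KO. In the HIF and MYC control list, 26 of 26 were tested, 10 above and 16 below 0. Egln2, a prolyl hydroxylase that marks HIF alpha subunits for destruction, was at 83.2, 78.0 and 85.2 CPM in WT and 71.1, 72, 72.1, 77.2 and 63.4 CPM in Furin KO (log2 fold change -0.21, edgeR adjusted p = 1.0), also without overlap. Dld, the E3 subunit of pyruvate dehydrogenase, was the other gene whose groups did not overlap, at 87.4, 93.0 and 86.9 CPM in WT and 76.1 to 86.5 CPM in Furin KO; it was named after its values were seen. These 3 of 58 genes make 5.17%, against 2.9% of all genes tested. Myc was at 245 ± 30.3 CPM in WT and 308 ± 79.4 CPM in Furin KO (log2 fold change 0.33, edgeR adjusted p = 1.0), and Epas1 had a log2 fold change of -0.89 on 4.78 ± 3.08 and 2.57 ± 0.847 CPM. Of the pyruvate entry genes 10 of 11 were tested (3 above, 7 below 0) and of the other pentose phosphate genes 6 of 9 (4 above, 2 below 0).

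Gapdh and Hk2 had low levels in 1 title run, whichever the genotype. Gapdh was at 17.7, 16.9 and 10.9 CPM in WT replicate 2 and Furin KO replicates 2 and 3, the libraries of run 2. It was at 61.5, 50.6 and 63.3 CPM in run 3 and at 59.6 and 63.8 CPM in run 1. The libraries of run 2 stood apart from all others, and run 3 was 3.86 times run 2 (log2 difference 1.95). These values rest on 204 to 1316 counts per library. Since 82.5% of the 50-base windows of Gapdh also occur in other genes, which part of its RNA was counted is not known. The summed level of the 182 near-identical copies of Gapdh did not follow: it was 11.4 to 18.9 CPM in run 2 and 12.8 to 17.4 CPM in the other 5 libraries.

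Hk2 was at 0.731, 0.527 and 2.03 CPM in run 2, at 2.42, 4.10 and 5.01 CPM in run 3 and at 2.81 and 3.10 CPM in run 1. Again run 2 held the lowest 3 libraries, with run 3 at 3.51 times its mean (log2 difference 1.81), on 11 to 86 counts per library. Fos, an immediate early gene, was also lowest in run 2, at 144, 204 and 85.8 CPM in run 2 and 801 to 1075 CPM in the other 5 libraries. The summed level of the 9 early response markers was 851 to 1397 CPM in run 2, 3359 to 4618 in run 3 and 3510 to 4483 in run 1. Of the 8 myeloid markers, 5 were at 0, and the sum (4.70 to 5.72 CPM in run 2 and 10.2 to 13.0 CPM in the others) was mostly Cd68, at 3.40 to 5.39 CPM in run 2 and 9.48 to 12.5 CPM elsewhere. Itgam was at most 2.08 CPM and Lyz2 at most 0.910 CPM. The part of any of these genes in the levels of Gapdh and Hk2 was not tested.

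Between runs 2 and 3, all of 8 weeks and each with 1 WT and 2 Furin KO libraries, 8 of the 31 genes (25.8%) had libraries that did not overlap, against 18.5% of all genes tested. With 1 library left out the count ran from 9 (without Furin KO replicate 3 or 5) to 15 (without WT replicate 2), against 27% to 30.2% of all genes. No test is given, since these runs were noticed in the counts themselves. 5 were higher in run 3 (Gapdh, Hk2, Ldhb, Gpi1 and Tkt; 9.03% of all genes) and 3 lower (Hif1a, G6pdx and Slc16a1; 9.47% of all genes). Apart from Gapdh, the differences were small among genes with a mean of at least 5 CPM, from -0.39 to 0.36 on the log2 scale. Slc16a1 was at the lower end, at 49.5, 48.6 and 51.3 CPM in run 2 and 43.1, 40.3 and 30.3 CPM in run 3 (log2 difference -0.39). Pfkm, at the upper end (0.36), overlapped. Gpi1, at 345, 385 and 340 CPM in run 2 and 406, 391 and 402 CPM in run 3, had 0.16, and G6pdx, with the values above, -0.32. Slc16a3, at 1.30, 0.575 and 0.961 CPM in run 2 and 0.112, 0.238 and 0.791 CPM in run 3, had -1.32 but overlapped.

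**Figure D5:**
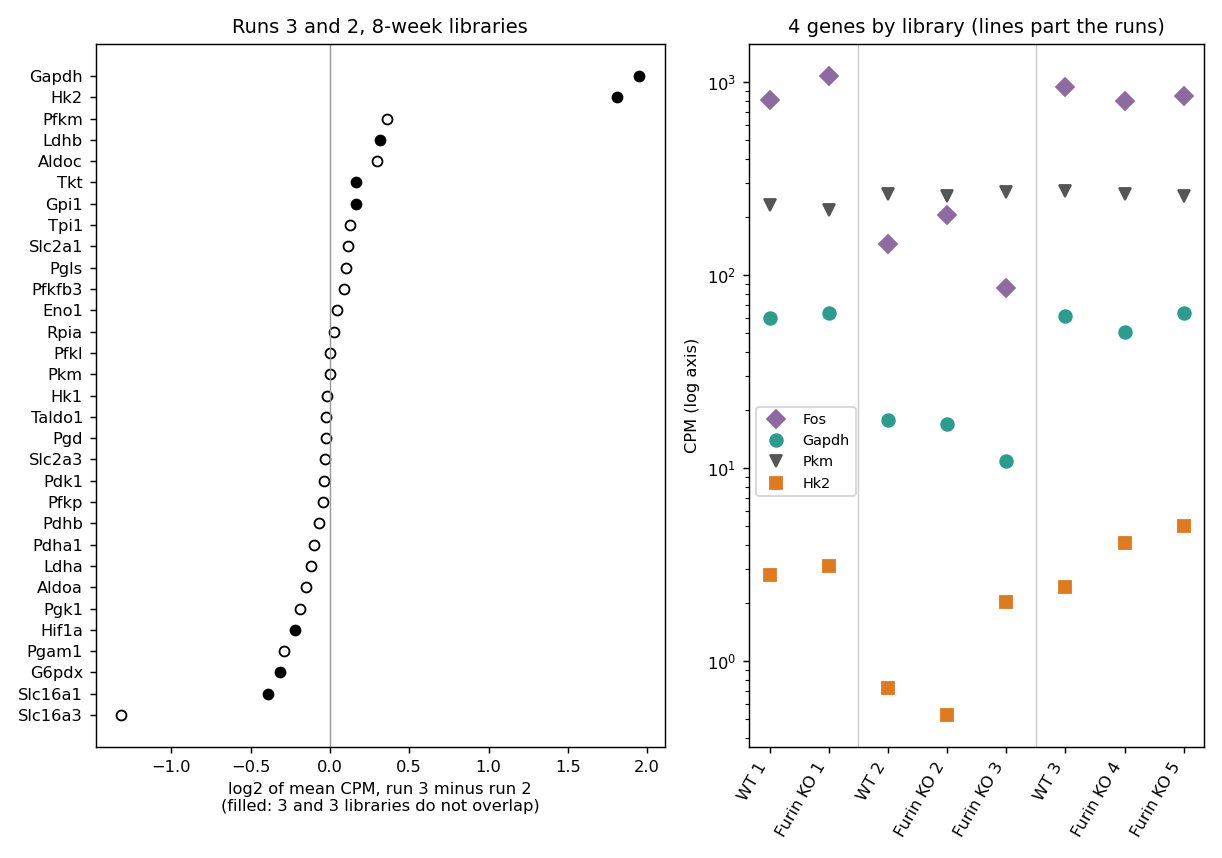
Left: log2 of mean CPM in run 3 minus run 2 for each gene, filled where the 3 and 3 libraries do not overlap (8 of 31). Right: CPM (log axis) of Fos, Gapdh, Pkm and Hk2 in each library in title order; Fos, Gapdh and Hk2 are lowest in the 3 libraries of run 2, while Pkm lies between 218 and 272 CPM throughout.

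Gapdh and Hk2 were both lowest in run 2, and Ldha was among the most abundant of the 31. The 250 bases before their starts are printed here (RefSeq, GRCm38.p6, 5′ to 3′ on the gene's strand), with capitals marking ACGTG or its reverse complement CACGT, the core letters of the hypoxia response element that HIF-1 binds; CACGTG, the E-box of MYC, holds both. The window of Ldha printed is chr7:46845554-46845803 (plus strand), that of Hk2 chr6:82774455-82774704 (minus) and that of Gapdh chr6:125165774-125166023 (minus).
Ldha: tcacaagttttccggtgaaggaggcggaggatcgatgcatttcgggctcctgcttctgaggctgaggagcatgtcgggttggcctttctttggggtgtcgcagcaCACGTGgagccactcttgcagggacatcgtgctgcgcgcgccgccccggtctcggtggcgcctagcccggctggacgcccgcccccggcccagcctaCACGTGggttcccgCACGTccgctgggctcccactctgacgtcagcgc
Hk2: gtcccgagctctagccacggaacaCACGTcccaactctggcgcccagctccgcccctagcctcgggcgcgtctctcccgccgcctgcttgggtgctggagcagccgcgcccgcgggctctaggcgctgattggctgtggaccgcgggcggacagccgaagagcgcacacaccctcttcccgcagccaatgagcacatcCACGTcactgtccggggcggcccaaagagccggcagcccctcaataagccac
Gapdh: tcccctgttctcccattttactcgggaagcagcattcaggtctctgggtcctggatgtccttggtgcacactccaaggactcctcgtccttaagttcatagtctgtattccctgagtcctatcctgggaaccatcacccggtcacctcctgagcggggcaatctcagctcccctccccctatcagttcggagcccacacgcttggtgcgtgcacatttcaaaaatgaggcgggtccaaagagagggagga
The printed Ldha window had 5 matches of ACGTG on either strand, 2 pairs of which form an E-box, and was chosen for having the most. A second Ldha start, with its window at chr7:46846832-46847081, had 0. The windows of Aldoa, the most abundant of the 31 per kilobase, had 1, 1 and 0. Hk2 had 2 and Gapdh 0 in these letters, but the uncounted form GCGTG stands in the printed Gapdh window. RefSeq windows of 300 bases (50 of them after the start) were found for 30 of the 31 genes, 44 windows in all. 20 of the 44 (45.5%) held ACGTG on either strand, against 19.6% of 32851 windows of all genes, and 5 (11.4%) held the E-box, against 7.15%. By gene, 17 of the 30 held ACGTG and 5 the E-box. Some genes have several windows, and these can overlap. The windows of all genes were not matched to the 44 in expression or in their share of G and C. A match is a string of letters and not a bound site.

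Age was the other labelled factor, and it cannot be told apart from run 1. With genotype in the model, 42 of 12500 genes (0.336%) passed between 7 and 8 weeks by edgeR and 0 of the 31 did. 7 of the 31 (22.6%) had an unadjusted p under 0.05, against 13.5% of all genes. With 1 8-week library left out, the count of 42 moved both ways. It was 0 without Furin KO replicate 2, 11 without WT replicate 3, 19 without Furin KO replicate 5 and 21 without Furin KO replicate 4. It was 45 without WT replicate 2 and 58 without Furin KO replicate 3. Leaving out a 7-week library leaves 1 of that age, so no count is given there. Pfkfb3 had the lowest p by age among the 31, at 57.0 and 58.3 CPM at 7 weeks and 37.6, 42.9, 44.7, 41.7, 38.7 and 52.8 CPM at 8 weeks. The 7-week libraries were the highest 2, with a log2 difference of 0.45 (7 minus 8 weeks, edgeR adjusted p = 0.151). Pkm was at 230 and 218 CPM at 7 weeks and 255 to 272 CPM at 8 weeks (log2 difference -0.24, edgeR adjusted p = 0.203), and Hk1 at 220 and 227 against 253 to 293 CPM (-0.26, edgeR adjusted p = 0.209). Aldoa, at 332 and 301 against 358 to 444 CPM, had -0.27 (edgeR adjusted p = 0.255). DESeq2 called Pfkfb3 (DESeq2 adjusted p = 0.0446) and Pkm (DESeq2 adjusted p = 0.0431). Without a filter on low counts, where 278 genes passed, edgeR called Gapdh (log2 difference 0.74, edgeR adjusted p = 5.54e-05). In the main fit Gapdh did not pass (edgeR adjusted p = 0.54), and the ages overlapped. Its 8-week mean includes the low libraries of run 2. At 7 weeks Gapdh was at 59.6 and 63.8 CPM, and in the 8-week libraries of run 3 at 61.5, 50.6 and 63.3 CPM. Tpi1 (triosephosphate isomerase) was at 30.7 and 40.9 CPM at 7 weeks and 40.2 to 55.3 CPM at 8 weeks, and the ages overlapped.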

How the data were processed

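RNA-seq counts of 8 libraries, raw and whole, were used as the authors deposited them, in a single table. Per the submitters' processing notes, STAR, Trim Galore, FastQC and DESeq2 1.24.0 were used with GRCm38. Counting program, annotation, strand setting and treatment of multi-mapping reads: not given in the sources used here. Columns were joined to samples by title; that of Furin KO replicate 4 stands among the WT columns. Symbols, positions and lengths are from GENCODE M21 (55480 of 55573 IDs matched). A second gene ID named Aldoa, with 6 counts in all, was not used. edgeR 4.0.16 (R 4.3.3) ran with TMM factors, filterByExpr and the quasi-likelihood test of genotype over 12500 genes, two-sided (common biological coefficient of variation 0.202), and was tested on simulated data. log2(CPM + 1) entered the exact permutation test. DESeq2 1.42.0 and limma-voom (limma 3.58.1) were alternatives. Per-length levels divide CPM by the union of a gene's exons. Full values were given for the isozyme families, the genes of lowest p by genotype and age, those that differed most between runs, Gapdh, G6pdx, Pdk1 and Hif1a; Tpi1 was added after its values were seen. Some items are not reported here. The members, lists and runs were chosen with earlier results of these data known.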

Additional observations from a re-analysis of the deposited data

Results flagged for a closer look

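Dixon's gap test over the 5 Furin KO libraries set 1 library apart in 1 of the 31 genes. Chance alone would give about 1.55 such genes. Pkm was at 218 CPM in Furin KO replicate 1 (7 weeks) and between 255 and 268 CPM in the other 4. WT replicate 1, the other 7-week library, had 230 CPM of Pkm.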

How the results depend on the processing

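By genotype, 0 of the 31 genes passed in any of the 17 settings, which included other size factors, other filters, DESeq2, limma-voom, age or title run as a factor, the 8-week libraries alone and leaving out each library. Of the other pathway genes 0 passed in the settings run for them, which were DESeq2, title run as a factor and leaving out each library. 17 of the 31 genes kept 1 sign throughout and 14 did not. Over all genes the count of 4 was 38 without a filter on low counts, 14 by DESeq2, 12 with title run as a factor and 3 to 5 with 1 library left out. For age the count of 42 was 278 without a filter, 375 by DESeq2 and 0 to 58 with 1 library left out, and among the 31 genes the count of 0 was 1 without a filter and 2 by DESeq2. Between runs 2 and 3 the count of 8 was 9 to 15 with 1 library left out, where 27% to 30.2% of all genes did not overlap. Shares by exon union, longest coding transcript and no length were 57.5%, 44.3% and 39.6% for Slc2a1, 96.3%, 97.9% and 98.0% for Hk1, 50.2%, 68.1% and 71.8% for Pfkp, 60.4%, 39.4% and 33.3% for Eno3, and 94.0%, 96.0% and 97.1% for Ldha. Apart from the lengths, the causes were not tested. Adding the copies found by sequence was chosen after seeing the data. No paired analysis was possible because the replicate numbers follow accession order and pair no samples; a fit blocked by title run could be made, and is the one with title run as a factor. Depth limits Aldoc, Slc16a3, Pgk1, Hk2 and Pgam1, each with 101 to 430 counts in all.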
